A study of Rattus norvegicus with 21 samples.

Results

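A window of 784 kb on rat chromosome 1, from 100371040 to 101155517 of the rn5 assembly, was examined in renal cortex of 37-week-old male rats. It had been singled out in earlier work on the same libraries because counts there were lower in Zucker Diabetic Sprague Dawley (ZDSD) rats, a selectively bred strain that becomes obese and diabetic with intact leptin signalling, than in Sprague Dawley (SD) rats. Of 36 genes annotated in the window, 10 had at least 10 counts in at least 6 libraries and form the set described here, out of 26404 annotated genes. The groups were SD rats (n=6), which are the non-diabetic controls; sham-operated ZDSD rats (SHAM, n=7 used); and ZDSD rats on dietary restriction plus medical therapy (DMT, n=6), which the labels call Medical bypass. DMT combined a restricted chow ration with fenofibrate, metformin, ramipril, rosuvastatin and liraglutide. Both ZDSD groups had a sham laparotomy with enrofloxacin and buprenorphine, after glucose control with insulin degludec. SD and ZDSD rats thus differed in strain, in diabetes and in surgery, and these cannot be told apart in a comparison with SD.

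A further 2 SHAM libraries held only 121511 and 101534 counts and were left out. The 19 libraries used held 14502127 to 27597901 counts, so that 3 counts in a library, taken as the limit of detection, corresponded to 0.109 to 0.207 counts per 1000000 counts (CPM). SHAM libraries (14502127 to 23995113 counts) were shallower than DMT libraries (22308943 to 26812590 counts). By their labels, SD and SHAM samples are re-analyses of samples deposited before, whereas DMT samples carry no such remark, and this difference and treatment cannot be told apart. Levels are CPM scaled by the trimmed mean of M values (TMM), as mean ± SD over rats. Levels and ratios of pooled counts were taken on plain library totals instead, without TMM scaling. The tissue label could not be checked against marker genes, because the identifiers in the files are not paired with gene symbols in the tables used here.

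The name under which the window was picked held for 4 of its 10 genes. ENSRNOG00000047662 and ENSRNOG00000046670 at its start, and ENSRNOG00000029237 and ENSRNOG00000032857 at its end, were lower in every SHAM rat and every DMT rat than in any SD rat. The other 6, which lie between them, overlapped between SD and both ZDSD groups. Non-overlap of this kind, lower in both ZDSD groups, was found for 2.82% of the 14664 genes tested. The window was chosen on the comparisons with SD, so the count is a description and nothing is read from it. The set is therefore called here the chromosome 1 window, not a block of lower genes.

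The lower genes shared a structure that had not been used to choose them, but which was noticed after their values had been seen. Each had 5 exons, with exon 3 of 287 bases and exon 4 of 137 bases. Only 10 genes in the whole annotation had that structure, and all 10 were on chromosome 1. Of these, 8 lay in the window: the 4 lower genes and 4 others that had too few counts to be in the set. The remaining 2 lay just past its higher end. None of the 6 genes that overlapped with SD had it, and these had from 3 to 11 exons.

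Exons of matching lengths are what tandem copies of an ancestral gene commonly show. The rat carries a large cluster of such copies on chromosome 1, the kallikrein-related peptidases, secreted serine proteases. The founding member of that family, tissue kallikrein, is made by the connecting and distal tubule of the kidney and cuts kininogen to release kinins, which widen vessels and promote sodium excretion. The RefSeq annotation of a later assembly, GRCr8, lists 31 genes with a kallikrein symbol on chromosome 1. For 8 of the 36 genes of the window, the distance from first to last base equals that of a gene with such a symbol. Among them are 2 of the 4 lower genes. The same held for 16 of 21566 other genes with more than 1 exon (0.0742%), and genes of 1 exon were not matched in the window either. The 8 include ENSRNOG00000046267 and ENSRNOG00000045980, which have the same length and match the same gene, so they are not separate matches. Each of these lengths also occurs in RefSeq genes of other names, and this is a match of length only: 0 of the 26404 identifiers could be paired with a symbol, and no gene is named from it.

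**Figure D1:**
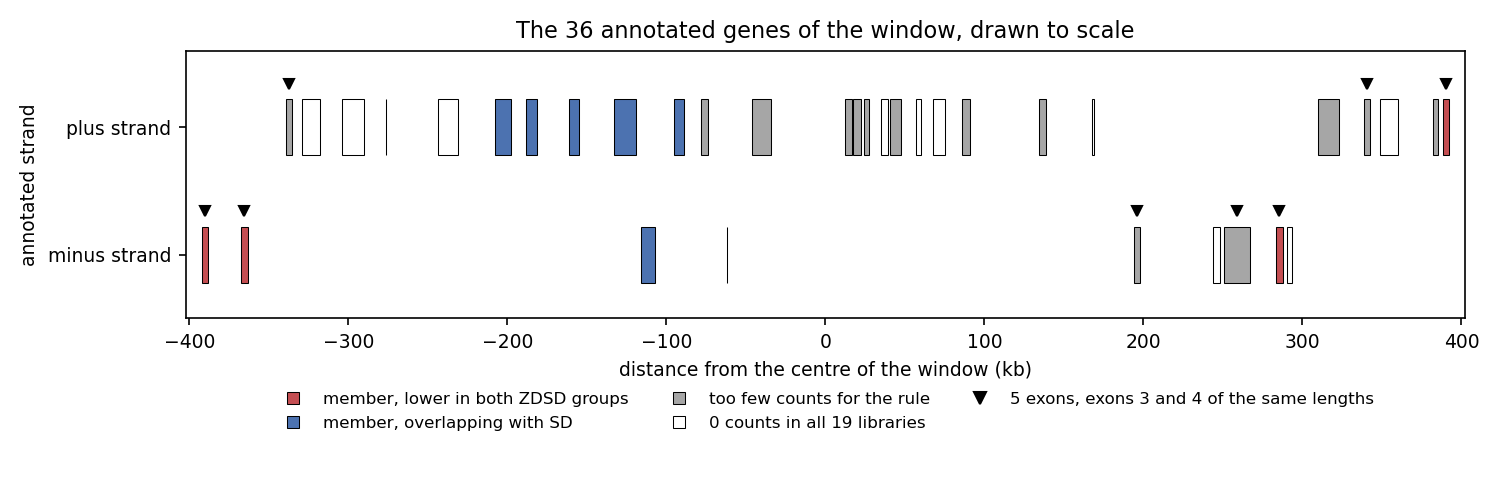
Map of the 36 annotated genes of the window by distance from its centre (kb, horizontal axis) and strand (vertical axis), drawn to scale. The 4 lower genes (red) sit at the ends, the 6 overlapping members (blue) left of the centre, and triangles mark the 8 genes with 5 exons and exons 3 and 4 of 287 and 137 bases.

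ENSRNOG00000047662 (100371040 to 100375077, minus strand, 780 exonic bases) is the first gene of the window. Its lowest, median and highest levels were 2.92, 5.68 and 7.01 CPM in SD rats, 0, 0.0603 and 0.537 CPM in SHAM rats, and 0.156, 0.425 and 0.972 CPM in DMT-treated rats. Every SD rat was above every ZDSD rat, while SHAM and DMT overlapped. In counts, SD rats had 57 to 169, SHAM rats 0 to 9 and DMT-treated rats 4 to 26. Mean levels were 5.07 ± 1.73 CPM in SD (n=6), 0.136 ± 0.190 CPM in SHAM (n=7) and 0.469 ± 0.289 CPM in DMT (n=6), which put SHAM at 2.69% and DMT at 9.24% of SD.

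ENSRNOG00000046670 (100395968 to 100399987, minus strand, 780 exonic bases) has the same 5 exon lengths as its neighbour and was the lowest of the 4 in SD rats. It reached 0.872, 1.35 and 2.01 CPM (lowest, median and highest) in SD rats, 0, 0 and 0.119 CPM in SHAM rats, and 0.0782, 0.152 and 0.299 CPM in DMT-treated rats. SD rats again lay above all ZDSD rats. The SHAM values rested on 4 counts in all, with 4 of 7 SHAM rats at 0 and all 7 at or under 3 counts, as were 3 of 6 DMT-treated rats. Its means were 1.41 ± 0.460 CPM in SD (n=6), 0.0303 ± 0.0449 CPM in SHAM (n=7) and 0.161 ± 0.0847 CPM in DMT (n=6).

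ENSRNOG00000029237 (101046494 to 101050871, minus strand, 858 exonic bases) lies 647 kb from the pair at the start of the window. Levels in SD rats were 7.26, 9.94 and 11.2 CPM (lowest, median and highest), against 0.0442, 0.181 and 0.715 CPM in SHAM rats and 0.166, 0.813 and 1.48 CPM in DMT-treated rats. The SD values were tightly grouped and far above both ZDSD groups, which overlapped. The means were 9.49 ± 1.57 CPM in SD (n=6), 0.268 ± 0.225 CPM in SHAM (n=7) and 0.773 ± 0.436 CPM in DMT (n=6), so that SHAM stood at 2.82% and DMT at 8.15% of SD.

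ENSRNOG00000032857 (101151631 to 101155517, plus strand, 859 exonic bases) closes the window and was the best counted of the 4. SD rats had 9.24, 14.8 and 35.6 CPM (lowest, median and highest), SHAM rats 0.618, 1.27 and 1.55 CPM, and DMT-treated rats 0.749, 1.05 and 1.998 CPM. SD rat 353 stood alone at 35.6 CPM, the next SD rat being at 15.9 CPM, and SHAM and DMT covered nearly the same range. Means were 17.2 ± 9.33 CPM in SD (n=6), 1.16 ± 0.311 CPM in SHAM (n=7) and 1.24 ± 0.526 CPM in DMT (n=6). Without rat 353 the SD mean was 13.5 ± 2.66 CPM (n=5).

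**Figure D2:**
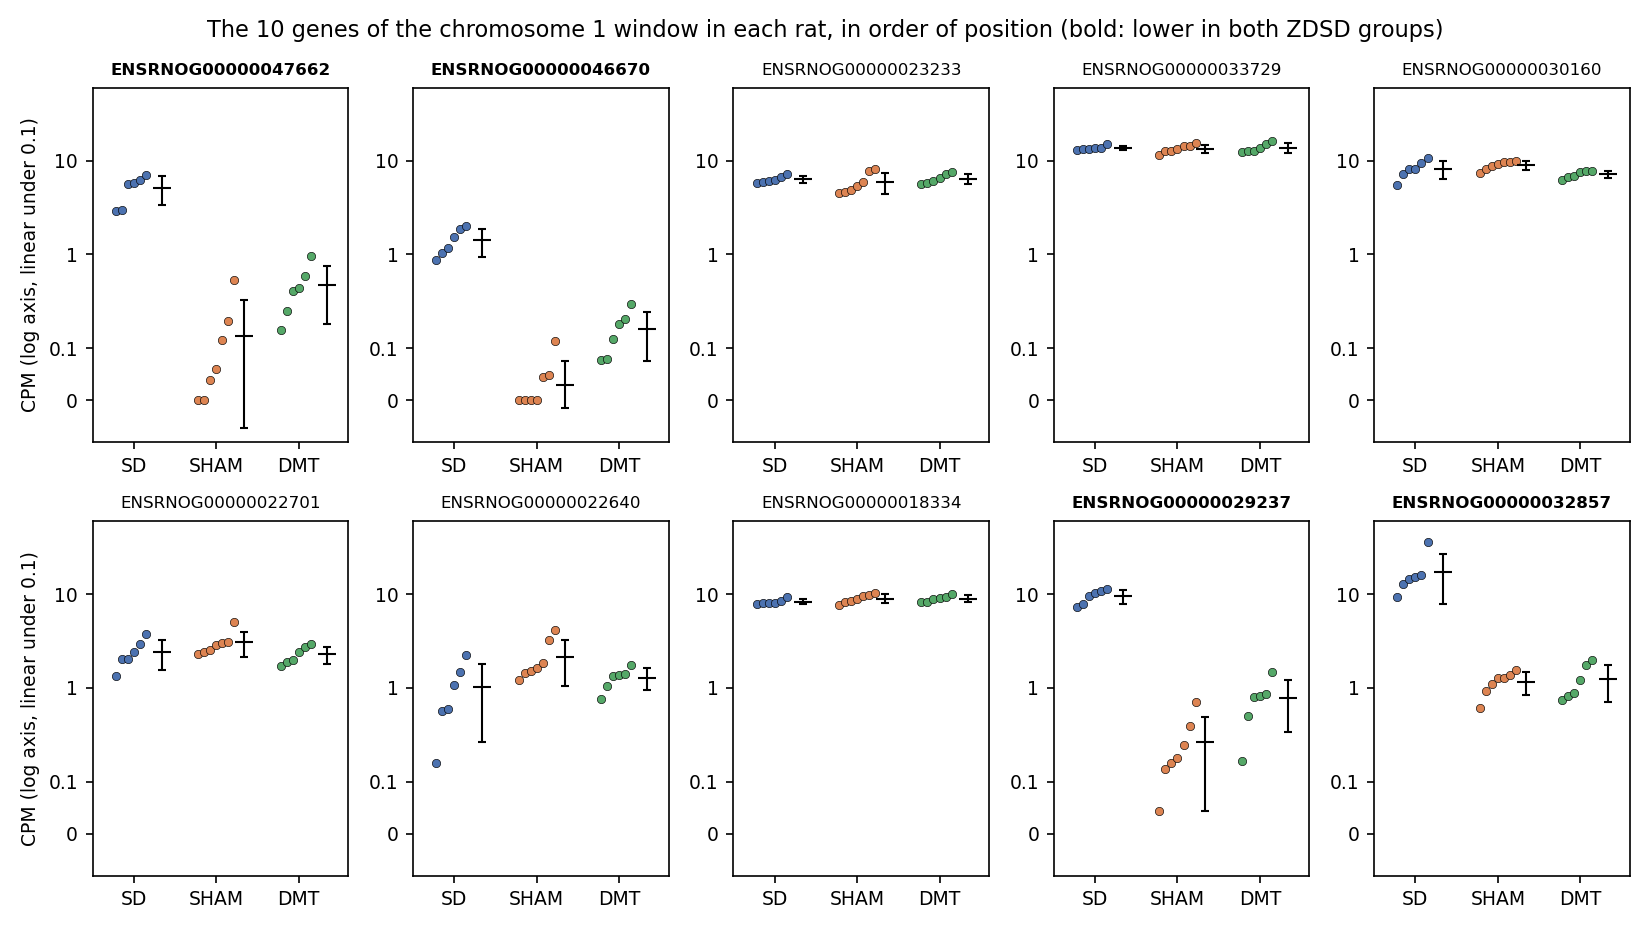
CPM of the 10 genes in each rat (points; vertical axis logarithmic above 0.1 and linear below) for SD (n=6), SHAM (n=7) and DMT (n=6), with mean ± SD beside each group. In the panels with bold titles SD lies above both ZDSD groups, and in the other 6 panels the groups overlap.

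As fold differences of mean levels, SD was 37.2, 46.5, 35.4 and 14.8 times SHAM for ENSRNOG00000047662, ENSRNOG00000046670, ENSRNOG00000029237 and ENSRNOG00000032857, in that order. SD was 10.8, 8.76, 12.3 and 13.9 times DMT for the same genes. The SHAM folds of the low genes leaned on SHAM rat 340. Without it they were 72.8 for ENSRNOG00000047662 and 49.1 for ENSRNOG00000029237. For ENSRNOG00000046670, 2 SHAM counts were then left. Its ratio of pooled counts at equal depth, which is not TMM-scaled and so is another measure, was 80.4 with a counting interval of 22.0 to 669. On the fitted log2 scale the differences from SD were -5.29, -5.37, -5.19 and -3.89 in SHAM and -3.42, -3.09, -3.62 and -3.80 in DMT, with standard errors of 0.31 to 0.51 and 0.32 to 0.44. The median of the 4 was -5.24 in SHAM and -3.52 in DMT, beside a median of 0.01 over all genes tested in either comparison. No test is given for these, since they served to choose the window. In whole tissue, fewer cells of a type and less RNA per cell cannot be told apart.

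Of the 4 genes, 3 stood high among the members of the window in SD rats. Per kb of exon, SD levels of ENSRNOG00000032857 and ENSRNOG00000029237 were the highest of the 10, at 20.01 and 11.1 CPM per kb. ENSRNOG00000047662 followed at 6.503 CPM per kb, close to ENSRNOG00000033729 at 6.24 CPM per kb. ENSRNOG00000046670 was low in SD too, at 1.81 CPM per kb, with ENSRNOG00000022640 the only member below it. In SHAM rats the 4 were the lowest of the 10, between 0.0389 and 1.35 CPM per kb, with ENSRNOG00000022640 next at 1.55 CPM per kb. Spread over rats was wide for the last of these genes, and it did not separate from ENSRNOG00000032857 in that order beyond its spread. The 4 genes were picked for lying below SD in both ZDSD groups, so their ranks are a description and nothing is read from them.

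The 6 genes in the middle, from 100555504 to 100674148, overlapped between SD and the ZDSD groups. Levels of 3 of them were close in all groups. ENSRNOG00000033729 had 13.6 ± 0.767 CPM in SD (n=6), 13.4 ± 1.24 CPM in SHAM (n=7) and 13.7 ± 1.58 CPM in DMT (n=6). ENSRNOG00000018334 had 8.32 ± 0.565, 8.96 ± 0.934 and 8.96 ± 0.710 CPM in the same groups, and ENSRNOG00000023233 had 6.33 ± 0.535, 5.87 ± 1.52 and 6.42 ± 0.773 CPM. For these 3 genes the log2 differences from SD ranged from -0.11 to 0.11.

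ENSRNOG00000030160 and ENSRNOG00000022701 were somewhat higher in SHAM than in DMT, with overlap. The former had 8.15 ± 1.76 CPM in SD (n=6), 8.95 ± 0.939 CPM in SHAM (n=7) and 7.15 ± 0.678 CPM in DMT (n=6), and the latter 2.40 ± 0.838, 3.05 ± 0.921 and 2.28 ± 0.484 CPM. ENSRNOG00000022640, annotated on the minus strand, ranged widely for its level, with 0.160 to 2.26 CPM in SD rats, 1.22 to 4.16 CPM in SHAM rats and 0.764 to 1.76 CPM in DMT-treated rats. Its mean was higher in SHAM (2.15 ± 1.11 CPM, n=7) than in SD (1.03 ± 0.761 CPM, n=6), the opposite direction to the 4 genes at the ends, and the groups overlapped. Medians over the 6 genes were 0.12 in SHAM and 0.02 in DMT as log2 differences from SD.

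The comparison of DMT with SHAM asked whether treatment moved these genes within the ZDSD strain. It was not used to pick the window, although it shares the SHAM rats with the comparison that was. By edgeR's quasi-likelihood test, with Benjamini-Hochberg adjustment over all 14664 genes, 3 of the 10 genes were higher in DMT at an adjusted p below 0.05 and a fold of at least 1.3, and 0 were lower. DESeq2 also called 3 higher, the same genes, and 0 lower, and by either tool 1 gene, ENSRNOG00000030160, was lower at an unadjusted p below 0.05. Of all genes tested, 4.12% were called higher and 7.36% lower. The 3 were among the 4 genes that were lower in ZDSD, and in none of the 3 did SHAM and DMT separate completely, which 4.60% of all genes did with DMT higher. All 10 passed the filter on low counts, but ENSRNOG00000046670 and ENSRNOG00000047662 only with the SD rats: in a fit of SHAM and DMT alone neither was tested, 8 members were, and ENSRNOG00000029237 was the 1 called (adjusted p=0.0397, edgeR). All 7 SHAM rats and 3 of 6 DMT-treated rats were at or under the limit of 3 counts for ENSRNOG00000046670, and 5 of 7 SHAM rats for ENSRNOG00000047662, so these calls rest on levels at the limit of detection. For ENSRNOG00000029237, 3 of 7 SHAM rats were at or under that limit too.

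ENSRNOG00000029237, the call that did not need the SD rats, rose by a log2 fold change of 1.57 (standard error 0.44, 95% interval 0.66 to 2.49, adjusted p=0.0159, edgeR), on 35 pooled counts in SHAM and 113 in DMT. For the other 2 the values are given with the limits above. ENSRNOG00000046670 had a log2 fold change of 2.28 (standard error 0.63, 95% interval 0.98 to 3.59, adjusted p=0.0147, edgeR). The pooled counts behind it were 4 in SHAM and 24 in DMT, a ratio of 5.47 at equal depth with a counting interval of 1.88 to 21.7. ENSRNOG00000047662 had 1.88 (standard error 0.62, 95% interval 0.58 to 3.17, adjusted p=0.0377, edgeR), on 17 and 70 pooled counts. This last call was fragile: leaving out any of 9 of the 19 rats, 5 SHAM and 4 DMT, raised its adjusted p to between 0.0529 and 0.105 (edgeR), and thinning all libraries to the depth of the shallowest raised it to 0.0556. SHAM rat 340 was the highest SHAM rat for all 3 genes, and without it the log2 fold changes were 1.998, 2.94 and 2.75 in the order given.

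ENSRNOG00000032857, the lower gene with the most counts, did not pass the test, with a log2 fold change of 0.09 (standard error 0.34, 95% interval -0.62 to 0.81, adjusted p=0.882, edgeR). The interval leaves room for a change of the size of the threshold in either direction. Pooled counts were 160 in SHAM and 181 in DMT, a ratio of 1.03 at equal depth with a counting interval of 0.829 to 1.28. Whether its response differed from those of the other 3 genes was not tested.

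Set against the distance from the SHAM mean to the SD mean, the difference between the DMT and SHAM means was 5.48% for ENSRNOG00000029237 and 6.73% for ENSRNOG00000047662. It was 9.47% for ENSRNOG00000046670, on SHAM values at or under the limit of detection, and 0.477% for ENSRNOG00000032857, which did not pass the test. The sign of this last share is not settled: without each rat in turn, the gene's log2 fold change ran from -0.10 to 0.20 (edgeR). The distance to SD is the value on which the window and the 4 genes were chosen, so these shares are a description.

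None of the other 6 genes was called between DMT and SHAM. ENSRNOG00000030160 came nearest, with a log2 fold change of -0.32 (95% interval -0.57 to -0.07, adjusted p=0.0610, edgeR). Its adjusted p was 0.0382 with DESeq2, 0.0203 in the edgeR fit of SHAM and DMT alone and 0.0203 to 1 over all alternatives, and its estimate was under the fold threshold in every alternative run. ENSRNOG00000022640 had -0.74 (95% interval -1.57 to 0.09, adjusted p=0.199, edgeR) and ENSRNOG00000022701 had -0.42 (95% interval -0.88 to 0.04, adjusted p=0.190, edgeR). For ENSRNOG00000023233, ENSRNOG00000033729 and ENSRNOG00000018334 the estimates were at most 0.13, with 95% intervals that stayed within -0.16 to 0.41. The median over the 6 was -0.16, beside 0.00 over all genes tested.

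**Figure D3:**
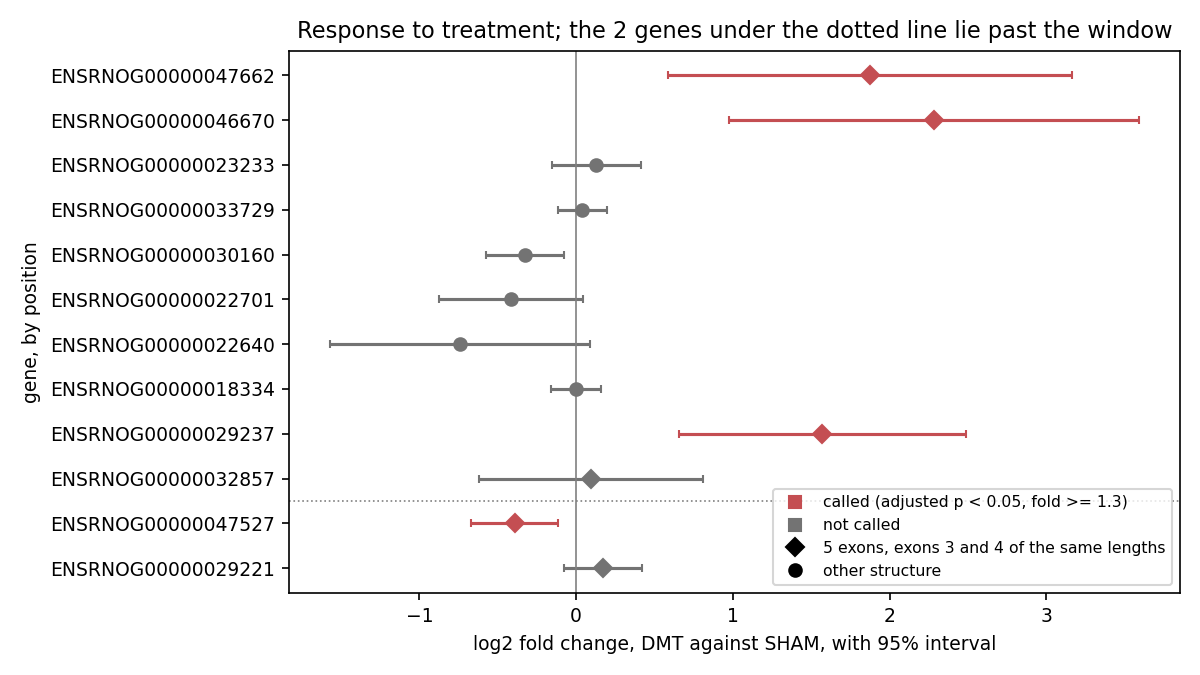
Log2 fold change of DMT against SHAM (horizontal axis, points with 95% intervals) for the 10 genes in order of position and for the 2 genes of the same exon structure past the window, below the dotted line. Red marks calls: 3 genes of the window are called higher in DMT, at 1.57 to 2.28, and ENSRNOG00000047527 is called lower, at -0.39. Of the 3, ENSRNOG00000046670 and ENSRNOG00000047662 passed the count filter only with the SD rats. Only ENSRNOG00000029237 was also called in a fit of SHAM and DMT alone.

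The rule for counts left out 26 of the 36 annotated genes, 10 of them at 0 counts in all 19 libraries. ENSRNOG00000046670 was just inside the rule, with 10 or more counts in exactly 6 libraries. ENSRNOG00000048630 (101014192 to 101030273, minus strand) was just outside, with 10 counts in 1 library, and it has the same 5 exon lengths as ENSRNOG00000046670. Each SD rat had 5 to 10 counts of it (47 in all), SHAM rats had 0, and DMT-treated rats 0 to 4 (7 in all). Its pooled SD level was 0.329 CPM, with a counting interval of 0.242 to 0.438 CPM. In SHAM the upper end of the counting interval was 0.0274 CPM. The other 3 genes of this structure in the window, ENSRNOG00000049279, ENSRNOG00000046297 and ENSRNOG00000048901, had 0 to 3 counts in every library. ENSRNOG00000049279 summed to 8 counts over SD, 4 over SHAM and 9 over DMT, and the other 2 genes to at most 2 counts in any group.

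Just past the higher end of the window, 41 kb on, the same structure occurred in genes with far more counts. ENSRNOG00000047527 (101196673 to 101200667, plus strand) had 422, 492 and 713 CPM (lowest, median and highest) in SD rats, 202, 272 and 313 CPM in SHAM rats and 171, 187 and 246 CPM in DMT-treated rats. ENSRNOG00000029221 (101264168 to 101268371, plus strand) had 605, 816 and 951 CPM in SD rats, 237, 331 and 371 CPM in SHAM rats and 303, 337 and 411 CPM in DMT-treated rats. For both, every SD rat was above every ZDSD rat. The difference was smaller than inside the window: SHAM stood at 49.1% and 37.4% of SD, and DMT at 37.4% and 42.2%. Per kb of exon their SD levels were 676 and 938 CPM, against 1.81 to 20.01 CPM per kb for the 4 lower genes.

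Neither of these abundant genes was called higher in DMT than in SHAM. ENSRNOG00000047527 was called lower in DMT, with a log2 fold change of -0.39 (standard error 0.13, 95% interval -0.67 to -0.12, adjusted p=0.0414, edgeR), and leaving out any of 10 of the 19 rats ended that call, with adjusted p up to 0.0911 (edgeR). ENSRNOG00000029221 had 0.17 (95% interval -0.08 to 0.42, adjusted p=0.326, edgeR) and was not called. Reads that mapped to several places were left out of the counts, so levels of genes this alike in structure are uncertain. How alike they are in sequence, and what share of the low counts in ZDSD rats belongs to them and not to a more abundant copy, was not tested.

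**Figure D4:**
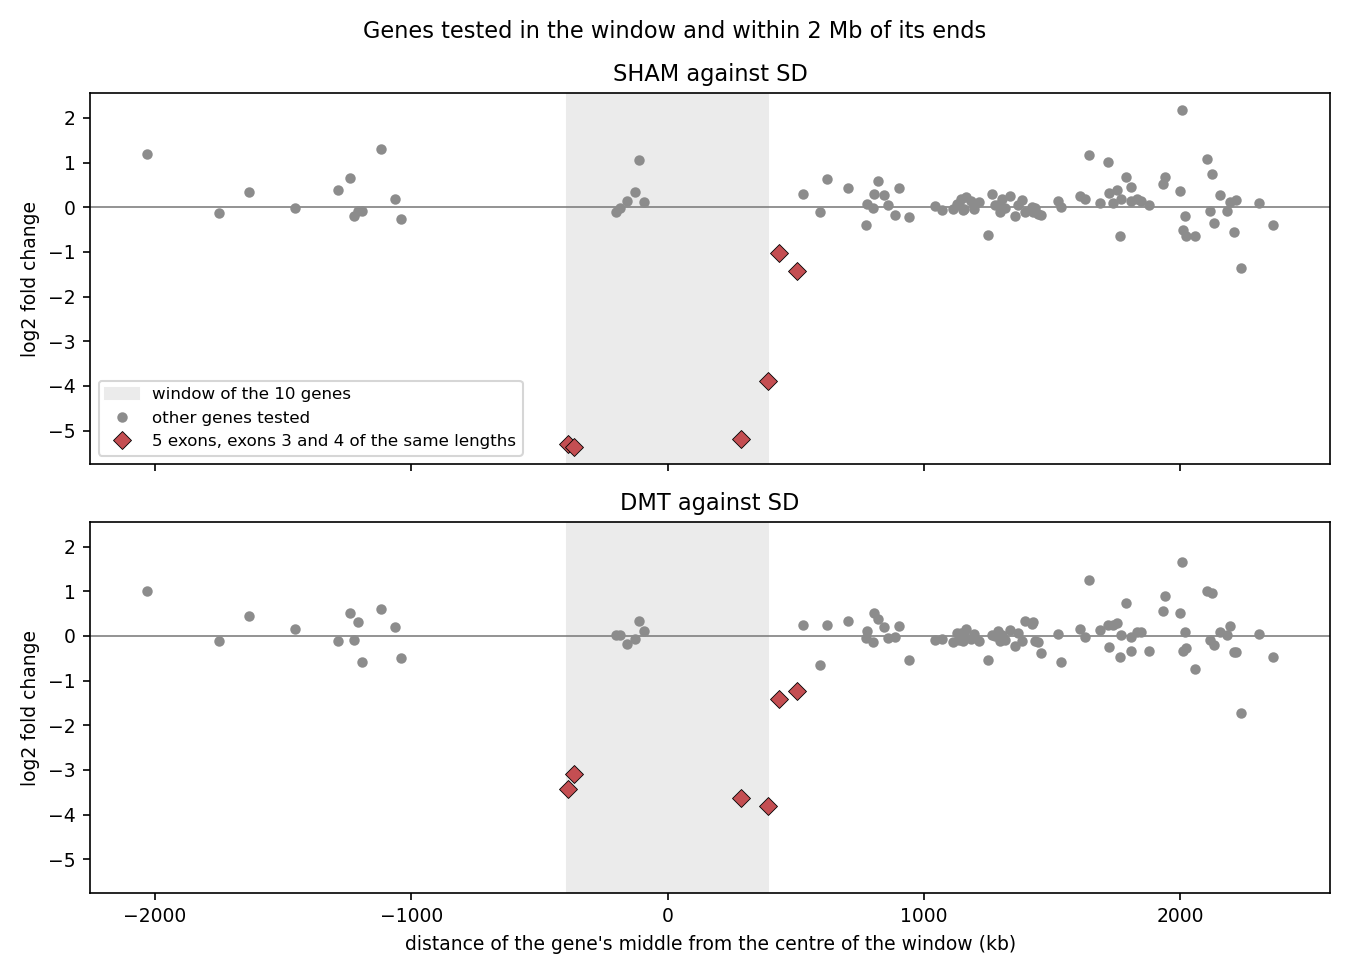
Log2 fold change against SD (vertical axes; SHAM above, DMT below) of the genes tested in the window (grey band) and within 2 Mb of its ends, by distance from its centre in kb. The 6 genes of the shared exon structure (red diamonds) lie at -1.03 or below in both panels, and of the other genes of the band 5 lie from -0.19 to 0.34 in both, with ENSRNOG00000022640 at 1.06 in SHAM and 0.32 in DMT.

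Most neighbours were near SD in level. Of 95 genes tested within 2 Mb of the window, 12 on its lower side and 83 on its higher side, the median log2 difference from SD was 0.06 in SHAM and 0.02 in DMT. In both ZDSD groups, 3 were below -1 and 4 were above 1. The 3 lower ones were the abundant pair above and ENSRNOG00000021109 (102985867 to 103016208, mean 1.13 CPM over the 19 libraries), which is named here after its values were seen. The nearest tested gene on the lower side, ENSRNOG00000037348, ends 649 kb before the window and had 0.594 ± 0.232 CPM in SD (n=6), 0.502 ± 0.308 CPM in SHAM (n=7) and 0.427 ± 0.196 CPM in DMT (n=6).

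Further out on that side, ENSRNOG00000024056 had 26.0 ± 3.37 CPM in SD (n=6), 29.6 ± 2.29 CPM in SHAM (n=7) and 29.9 ± 1.94 CPM in DMT (n=6). ENSRNOG00000021474 had 1.03 ± 0.476, 2.52 ± 1.34 and 1.55 ± 0.414 CPM in these groups. On the higher side the third neighbour, ENSRNOG00000019132, had 16.3 ± 3.44, 20.03 ± 2.92 and 19.4 ± 2.74 CPM. In all 3 genes the ZDSD means were above the SD mean and the groups overlapped, and none was called between DMT and SHAM (adjusted p=0.911, 0.167 and 0.835, edgeR).

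Outside the window and its surroundings, the genes whose levels ran most like the mean of the 10 members over the 19 libraries lay on several chromosomes. ENSRNOG00000007894 on chromosome 5 was closest (Pearson r=0.95 of log2 CPM, n=19 libraries), with means of 100.4 CPM in SD, 64.9 CPM in SHAM and 68.6 CPM in DMT. ENSRNOG00000006962, at 218367084 to 218446952 on chromosome 1 and so far from the window, had r=0.94 and means of 15.9, 0.308 and 0.276 CPM. ENSRNOG00000018268 on chromosome 19 had r=0.94 and means of 33.3, 3.00 and 3.26 CPM. ENSRNOG00000032508 on chromosome 6 had r=0.95 and means of 19.2, 1.897 and 3.80 CPM, and ENSRNOG00000049961 on chromosome X had r=0.93 and means of 1.02, 0.0613 and 0.0487 CPM. All 5 were higher in SD than in either ZDSD group, and since the 19 libraries share that difference between SD and ZDSD rats, the correlations are descriptions without a test. The mean over the 10 members followed mainly the 4 lower genes, whose median log2 differences from SD were -5.24 in SHAM and -3.52 in DMT. For the other 6 members these medians were 0.12 and 0.02, so the likeness is not one to every gene of the window.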

How the data were processed

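RNA-seq libraries of renal cortex from 21 rats were analysed from gene counts deposited by the authors: stranded total RNA libraries, trimmed with Trim Galore, mapped to rn5 with STAR and counted per gene with featureCounts 1.6.4 as reverse-stranded fragments over exons, without multi-mapping reads. The counts are raw, 1 file per rat, and the rats are separate animals named by number. Here 19 libraries were used, without 2 SHAM libraries under 1000000 counts. Counts of all 3 groups were fitted together with edgeR 4.0.16 in R 4.3.3 (filterByExpr, TMM, quasi-likelihood test), and 14664 genes were tested. Calls needed a Benjamini-Hochberg adjusted p below 0.05 and a fold of at least 1.3, the thresholds of the study's methods. Counting intervals are 95% exact intervals and, like the limit of 3 counts, cover counting error only. No pair of same-group libraries agreed within sampling noise (lowest chi-square per gene 9.11 over 51 pairs).

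The window, its members and all lists were chosen with earlier results of these data known. Genes named are every member, the 3 nearest tested genes on each side, and the 5 genes most alike; genes of the same exon structure and ENSRNOG00000021109 were added after their values were seen. Lists of kallikrein-kinin, tubule transport, siglec and cell type marker genes were drawn up but not used, since the identifiers could not be paired with symbols. Alternatives were DESeq2 1.42.0, other size factors, filters and thresholds, all 21 libraries, fits of 2 groups, leaving out each rat, and thinned libraries.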

Additional observations from a re-analysis of the deposited data

Results flagged for a closer look

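In 48 groups of values (the 10 members and 6 neighbours, each in SD, SHAM and DMT), 6 held a rat that stood far from the others by Dixon's criterion. For independent, normally distributed values chance alone gives about 1 in 20, or 2.4. The groups reuse the same 19 rats and some hold few counts, so that rate need not apply and no excess is read from it. SHAM rat 340 had 0.537 CPM of ENSRNOG00000047662 (9 counts), the other SHAM rats lying between 0 and 0.196 CPM, and 0.119 CPM of ENSRNOG00000046670 (2 counts), the others lying between 0 and 0.0489 CPM. Without this rat the SHAM means were 0.0697 ± 0.0767 and 0.0155 ± 0.0241 CPM (n=6). SD rat 353 had 35.6 CPM of ENSRNOG00000032857, against 9.24 to 15.9 CPM in the others, and 15.1 CPM of ENSRNOG00000033729, against 13.0 to 13.5 CPM. SHAM rat 333 had 5.02 CPM of ENSRNOG00000022701, against 2.33 to 3.08 CPM in the other SHAM rats, and 1.16 CPM of the neighbour ENSRNOG00000037348, against 0.181 to 0.477 CPM. Each of these is the highest value of its group.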

How the results depend on the processing

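The call of ENSRNOG00000029237 as higher in DMT held without any single rat (adjusted p up to 0.0457, edgeR), with DESeq2 (0.000945), with all 21 libraries (0.0104), in the fit of only the 2 groups (0.0397) and in libraries thinned to the lowest total, an alternative chosen after seeing the data (0.0200). For ENSRNOG00000046670 the adjusted p was up to 0.0388 without any single rat (edgeR) and 0.0149 with DESeq2, but each of these fits kept SD rats, without which it was not tested, and its SHAM group held 4 counts. The call was lost for all 3 called genes when the fold of 1.3 was itself tested in the model (0 of 10 members; adjusted p 0.0673 and 0.0930, and 0.176 for ENSRNOG00000047662). Fits of only the 2 groups compared left 8 members tested and 1 called, ENSRNOG00000029237, and asking for 10 counts in every library left 6 tested and 0 called, both because the low genes were filtered out. Leaving out each rat in turn left 2 to 3 members called. No direction of a called member turned in any alternative. The number of genes called was 1684 between DMT and SHAM, 2681 between SHAM and SD and 2663 between DMT and SD. It was 2975, 5131 and 4682 without a fold threshold, and 461, 810 and 1091 with the fold tested in the model. Without each rat in turn it was 1398 to 1958, 2198 to 3070 and 2437 to 2823. Genes called higher in DMT were 35.9% of the calls, 48.0% without a fold threshold. With 1 Mb in place of 2 Mb on each side the median of the neighbours was 0.05 in SHAM and -0.04 in DMT. No paired analysis was possible because the groups share no rat numbers. Depth limited the SHAM values of ENSRNOG00000046670 and ENSRNOG00000047662, of which 7 and 5 of 7 rats were at or under 3 counts. For ENSRNOG00000029237 this held for 3 of 7 SHAM rats.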
